A study of Sus scrofa with 4 samples.

Results

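Type I interferon stimulated genes were followed through the cells of the pig conceptus and of the uterine lining, at 9 and 12 days of pregnancy. The group was a list of 38 symbols, matched by exact symbol to the gene rows of the deposited tables. Rows were found for 35 of the 38 symbols, out of 21280 gene rows in all; IFIT3, DDX58 and XAF1 were not analysed here. By role the 35 genes comprised 3 sensors of RNA or nucleic acid, 5 transcription factors, 15 antiviral effectors, 8 genes of the ISG15 pathway and of ubiquitin or ADP-ribose transfer, and 4 other induced proteins.

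Type I interferons are secreted proteins that bind the receptor pair IFNAR1 and IFNAR2, which is carried by most cells. The receptor activates transcription factors that include STAT2 and IRF9, which switch on a large set of genes that block virus replication at many steps. In ruminants the conceptus signals its presence to the uterus with a type I interferon, tau, whereas the elongating pig conceptus is known for secreting interferon gamma, a type II interferon, with the less studied interferon delta, a type I interferon. Interferon stimulated genes are known to be expressed in the pig endometrium around this time, mainly in the stroma.

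The series held 4 single-cell RNA libraries, 1 each of day 9 embryos, day 12 embryos, day 9 pregnant endometrium and day 12 pregnant endometrium. The sources used here do not give the number of animals or embryos pooled in a library, and no endometrium of non-pregnant animals was analysed here. With 1 library per group, day and library cannot be told apart, and no difference below was tested. The libraries kept between 6671 and 8962 cells, and medians of 11883.5, 9297, 2639 and 2233 UMIs (unique molecules) per cell in the order above.

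Cells were grouped within each library by clustering without the 35 genes and other interferon induced genes, and clusters were called "X-like" from marker genes. A level is the UMIs of a gene when the UMIs of all genes are scaled to a total of 1e6 (CPM), summed over the cells of a class. Ratios of levels are day 12 over day 9 unless said otherwise, with a 95% interval in parentheses that covers counting error only and says nothing of differences between animals. A gene was counted as higher or lower at 2-fold or more on the log2 scale with 1 CPM added, among genes at 5 CPM or more on a day. The stromal marker DCN, a collagen-binding proteoglycan, stood at 6917 CPM on day 9 against 16501 CPM on day 12 in stromal-like cells. It stood at 2641 CPM on day 9 against 1053 CPM on day 12 in T or NK-like cells, which should lack it; the part of RNA from other cells in the levels of the interferon stimulated genes was not tested.

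The interferon stimulated genes were abundant in the uterus and scarce in the conceptus. Summed over the 35 genes, the level was 18323 CPM (18271 to 18375) in the day 9 endometrium and 9193 CPM (9155 to 9230) in the day 12 endometrium. The same sum was 63.0 CPM (61.3 to 64.7) in the day 9 embryo and 200 CPM (196 to 203) in the day 12 embryo. In the whole day 12 endometrium 6 of 34 members at 5 CPM were higher than on day 9 (STAT2, IFIT1, IFIT2, ISG20, SAMHD1 and PARP14) and 3 lower (OASL, IFI6 and ISG12(A)), against 6.13% higher and 7.48% lower of all genes. No member was at 0 in either endometrial library, and 30 of the 35 reached 20 CPM in the day 12 endometrium against 3 in the day 12 embryo.

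**Figure D1:**
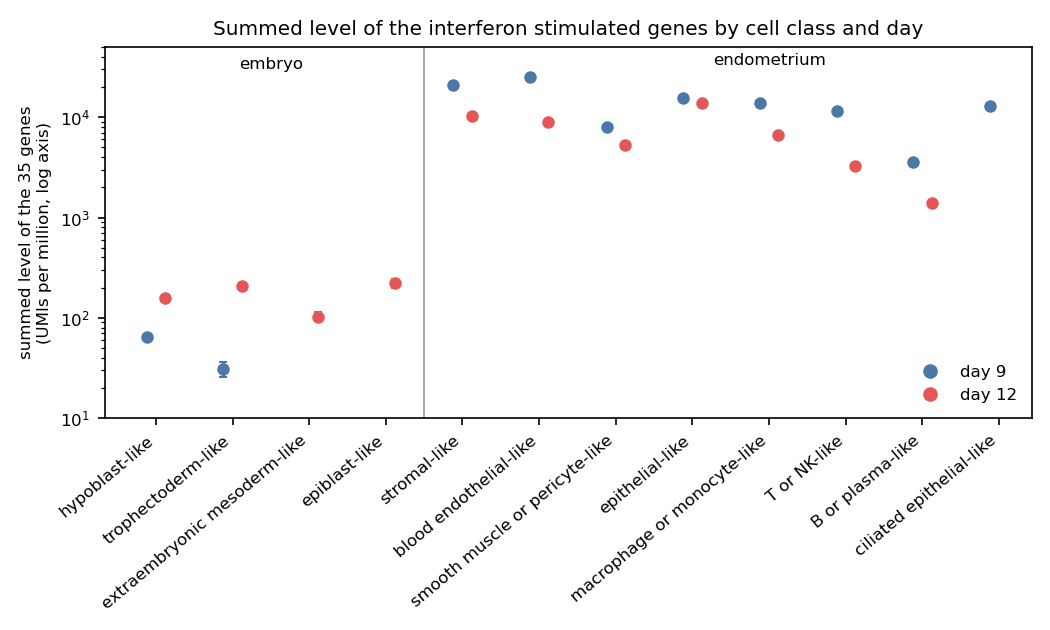
Summed level of the 35 interferon stimulated genes (CPM, log axis) in each cell class of 50 cells or more in the 4 libraries, with points for the 2 days and bars for the 95% counting interval. Endometrial classes lie between 1383 and 25040 CPM, and embryonic trophectoderm-like and hypoblast-like cells between 30.9 and 208 CPM.

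Within the day 9 endometrium the blood endothelial-like cells held the highest summed level of the named classes, 25040 CPM (24766 to 25317). Stromal-like cells followed with 20918 CPM, epithelial-like with 15611, macrophage or monocyte-like with 13946, ciliated epithelial-like with 12794, T or NK-like with 11570, smooth muscle or pericyte-like with 7964 and B or plasma-like with 3600 CPM. These neighbours in the order lay further apart than their counting intervals. On day 12 the order was different at the top: epithelial-like cells held 13959 CPM, stromal-like 10321, endothelial-like 8983 and ciliated epithelial-like, from 43 cells, 8414 CPM. Macrophage or monocyte-like cells held 6689 CPM, smooth muscle or pericyte-like 5316, T or NK-like 3262 and B or plasma-like 1383 CPM. ISG12(A) alone made up 83.1% of the day 12 epithelial-like sum. Without the highest member of each class, epithelial-like cells stood at 2359 CPM on day 12. Endothelial-like cells then stood at 6234 CPM, stromal-like at 5432 and ciliated epithelial-like at 4257 CPM. Macrophage or monocyte-like cells stood at 3979, smooth muscle or pericyte-like at 3644, T or NK-like at 2208 and B or plasma-like at 882 CPM. Stromal-like cells made up 63.2% of the day 9 cells and held 56.4% of the UMIs of all genes in that library. They held 64.4% of the UMIs of the 35 genes there.

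IFI6 and ISG12(A) carried most of this sum. IFI6 encodes a small mitochondrial and endoplasmic reticulum protein that limits apoptosis and flavivirus replication, and lies at chromosome 6, 84852782 to 84858072 on Sscrofa11.1. ISG12(A), the pig form of IFI27, encodes another small mitochondrial protein of the same family, at chromosome 7, 115356619 to 115361537. IFI6 was the highest member in every endometrial class on day 9 other than the epithelial-like and ciliated epithelial-like classes, where ISG12(A) was. In stromal-like cells IFI6 made up 59.6% of the sum on day 9 and 47.4% on day 12.

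Both genes were lower on day 12 in the stroma, the vessels and the leukocytes. IFI6 stood at 12473 CPM on day 9 against 4889 CPM on day 12 in stromal-like cells, 2.55-fold lower (2.53 to 2.57). In endothelial-like cells it stood at 13962 and 2749 CPM, 5.08-fold lower (4.96 to 5.20), and in T or NK-like cells at 6416 and 1054 CPM, 6.08-fold lower (5.71 to 6.48). IFI6 was thus lower on day 12 in each of the 7 endometrial classes compared, from 2.29-fold in smooth muscle or pericyte-like cells to 6.08-fold. ISG12(A) stood at 4665 and 1323 CPM in stromal-like cells, 3.53-fold lower (3.47 to 3.58), and at 4134 and 947 CPM in endothelial-like cells, 4.36-fold lower (4.19 to 4.55). It was also lower in the macrophage, T or NK, smooth muscle and B or plasma-like classes, by 2.90-fold to 8.65-fold. The epithelial-like class as a whole was the exception: ISG12(A) stood at 9589 CPM on day 9 against 11600 CPM on day 12 there, a ratio of 1.21 (1.19 to 1.23). That class joined day 9 clusters with unlike levels of ISG12(A), and the levels of the day 12 clusters lay between them (given below).

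The rest of the group did not follow these 2 genes. In stromal-like cells 33 of the 35 genes reached 5 CPM; 7 were higher on day 12 and 2, IFI6 and ISG12(A), lower, against 5.90% higher and 7.94% lower of all genes. The median log2 ratio was 0.12 over the 33 and -0.10 over all genes at that level. Without IFI6 the summed level of the stromal-like class was 8445 CPM on day 9 against 5432 CPM on day 12, which still included ISG12(A). The role groups that hold neither gene differed less. Summed on days 9 and 12, the sensors stood at 78.6 and 60.1 CPM and the transcription factors at 182 and 307 CPM. The antiviral effectors stood at 1164 and 1280 CPM, and the ISG15 pathway group at 2177 and 2212 CPM.

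Of the transcription factors in stromal-like cells, STAT2, a factor of the type I receptor response, stood at 30.5 CPM on day 9 against 79.2 CPM on day 12, a ratio of 2.60 (2.32 to 2.91). IRF7, the factor that amplifies interferon alpha production, stood at 70.1 and 120 CPM, a ratio of 1.71 (1.58 to 1.85). IRF2, which represses interferon targets and is known from the luminal epithelium of sheep, stood at 45.0 and 74.0 CPM, a ratio of 1.65 (1.49 to 1.82). IRF9, the DNA-binding partner of STAT2, stood at 17.5 and 15.4 CPM, and IRF8, a factor of the myeloid lineage, at 18.4 and 19.1 CPM. Their intervals held 1.

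Among the stromal effectors the IFIT genes, whose proteins bind foreign RNA and hold back its translation, were higher on day 12. IFIT1, at chromosome 14, 101237403 to 101249486, stood at 131 CPM on day 9 against 389 CPM on day 12, a ratio of 2.96 (2.81 to 3.12). IFIT2, its neighbour, stood at 1.77 and 14.2 CPM, a ratio of 8.04 (5.32 to 12.6), whereas IFIT5 differed less, at 79.6 and 107 CPM. ISG20, an RNA exonuclease, stood at 1.22 and 5.09 CPM, a ratio of 4.16 (2.44 to 7.43). SAMHD1, which degrades deoxynucleotides that viruses need, stood at 9.38 and 34.5 CPM, a ratio of 3.68 (3.03 to 4.48).

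The dynamin-like and kinase effectors differed less between days. MX1 and MX2 encode GTPases that trap incoming viral particles. MX1, at chromosome 13, 204843049 to 204868927, stood at 286 and 181 CPM in stromal-like cells, 1.58-fold lower (1.50 to 1.66). MX2 stood at 95.8 and 74.3 CPM, 1.29-fold lower (1.19 to 1.40), and EIF2AK2, the RNA-activated kinase PKR, at 180 and 124 CPM, 1.46-fold lower (1.37 to 1.55). OAS2, which makes the messenger that activates RNase L, stood at 157 and 144 CPM, and its neighbour OAS1 at 11.5 and 13.0 CPM. ADAR, an RNA editing enzyme, stood at 54.4 and 42.5 CPM, CMPK2 at 18.6 and 12.1 CPM, RSAD2 (viperin) at 6.46 and 5.68 CPM, and BST2 (tetherin, which holds budding virions at the cell surface) at 129 and 134 CPM. None of these 9 genes passed 2-fold in stromal-like cells, and OASL was under 5 CPM there on both days.

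The ISG15 pathway was nearly level in the stroma. ISG15 is a ubiquitin-like protein that is attached to other proteins, and lies at chromosome 6, 63363201 to 63364211. It stood at 1961 CPM on day 9 against 1900 CPM on day 12 in stromal-like cells, a ratio of 0.968 (0.952 to 0.985). USP18, the protease that removes ISG15 and dampens the receptor, stood at 82.1 and 93.9 CPM, HERC6, a ligase for ISG15 in rodents, at 43.0 and 58.3 CPM, and TRIM25, a ubiquitin ligase of RNA sensing, at 39.5 and 45.0 CPM. UBA7, the enzyme that activates ISG15, was under 5 CPM on both days in each class compared. DTX3L, a ubiquitin ligase that acts with PARP9, stood at 9.85 and 26.5 CPM, a ratio of 2.69 (2.22 to 3.29), and PARP14, an ADP-ribosyl transferase, at 19.6 and 51.9 CPM, a ratio of 2.65 (2.31 to 3.05). PARP9 stood at 20.8 and 36.7 CPM, a ratio of 1.77 (1.53 to 2.04).

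Of the sensors, IFIH1 (MDA5, which binds long double-stranded RNA) stood at 26.8 and 28.7 CPM in stromal-like cells. DHX58 (LGP2, its regulator) stood at 37.6 and 19.1 CPM, 1.96-fold lower (1.69 to 2.29), and ZBP1, a sensor of Z-form nucleic acid, at 14.3 and 12.3 CPM. IFI44L, of uncertain function, stood at 115 and 180 CPM, a ratio of 1.57 (1.47 to 1.67), and its neighbour IFI44 at 63.4 and 69.0 CPM.

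**Figure D2:**
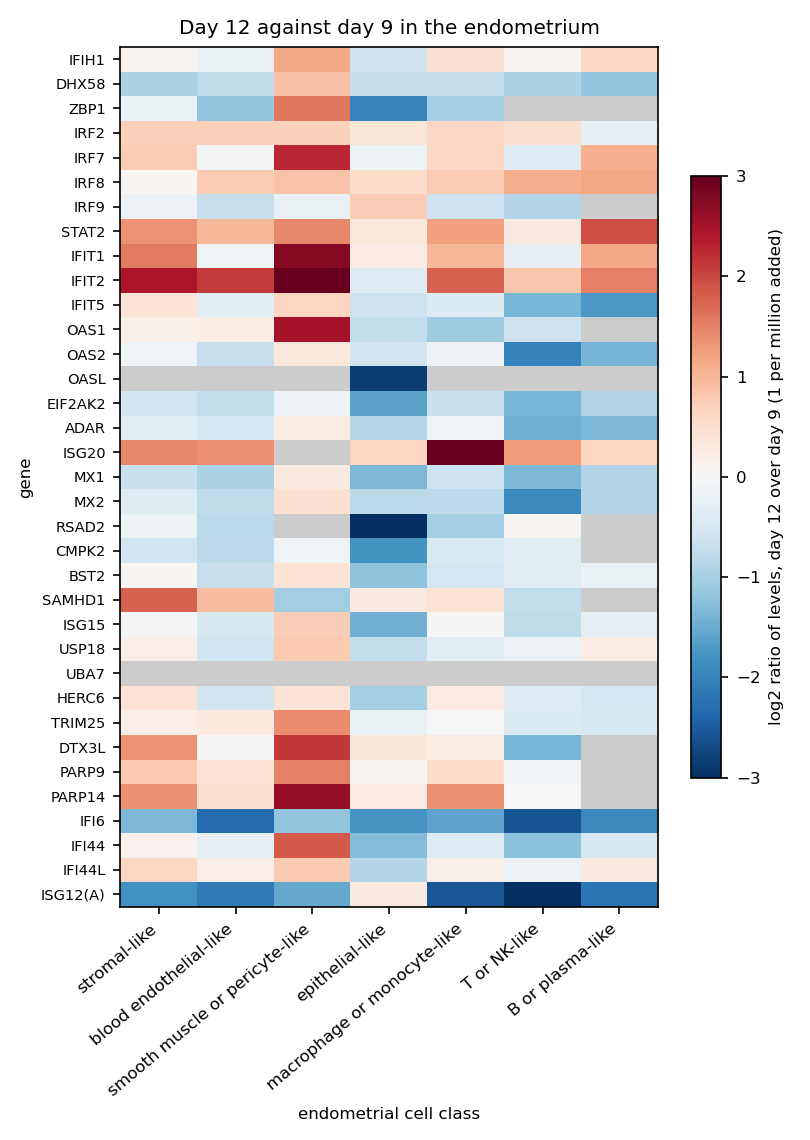
Log2 ratio of day 12 over day 9 (1 CPM added) for each interferon stimulated gene in 7 endometrial cell classes, with genes ordered by role and grey fields where both days are under 5 CPM, colours capped at -3 and 3. IFI6 is lower in all 7 classes and ISG12(A) in all but the epithelial-like class, where the day 9 value joins clusters with unlike levels. The log2 ratio of STAT2 is above 0 in all 7, from 0.27 to 1.94.

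The level in each stromal cluster was checked, since the class held several. The 3 day 9 stromal-like clusters stood at 24870, 13561 and 26105 CPM summed, and the 4 day 12 clusters at 8463, 11548, 11838 and 10554 CPM. Every day 12 cluster thus lay under every day 9 cluster, although the lowest day 9 cluster was nearer to the day 12 clusters than to the other 2 of its day.

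Epithelial-like cells showed a different layout: in the class as a whole ISG12(A) was not lower on day 12, while IFI6 and several effectors were. Of 34 members at 5 CPM, 0 were higher and 10 lower on day 12, against 11.1% higher and 15.1% lower of all genes, and the median log2 ratio was -0.68 against -0.16. ISG15 stood at 1165 CPM on day 9 against 433 CPM on day 12, 2.69-fold lower (2.47 to 2.93). MX1 stood at 150 and 58.5 CPM, 2.56-fold lower (2.03 to 3.26), and EIF2AK2 at 92.2 and 29.6 CPM, 3.11-fold lower (2.26 to 4.39). RSAD2 stood at 26.1 and 1.41 CPM (2 UMIs on day 12), 18.5-fold lower (4.99 to 155), and OASL, an OAS-like RNA sensor partner, at 26.3 and 2.82 CPM, 9.33-fold lower (3.54 to 34.8). CMPK2, BST2, IFI44, IFI6 and ZBP1 were the other 5 genes counted as lower. IRF2 stood at 75.1 and 97.3 CPM in epithelial-like cells, a ratio of 1.30 (1.05 to 1.59), and a ratio above 1 was also seen in stromal-like and endothelial-like cells (69.2 and 114 CPM).

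This epithelial pattern depended on which day 9 epithelium was counted. The day 9 class joined cluster 6 (368 cells) at 24255 CPM and cluster 8 (300 cells) at 8991 CPM. Leading genes of cluster 6 included CLDN8, FXYD4 and S100A2, and those of cluster 8 SORL1, CCL28, SPDEF and AQP3. The 2 day 12 clusters, 8 (296 cells) and 13 (58 cells), stood at 13953 and 13997 CPM. ISG12(A) stood at 14661 CPM in day 9 cluster 6, 5704 CPM in day 9 cluster 8, 11738 CPM in day 12 cluster 8 and 10604 CPM in day 12 cluster 13. ISG15 stood at 2124, 431, 407 and 618 CPM, and MX1 at 258, 67.4, 53.8 and 92.5 CPM, in the same order. With day 9 cluster 6 left out, the ratio of the summed level was 1.55 in place of 0.894, and 7 members were higher and 3 lower. With day 9 cluster 8 left out it was 0.576, and 21 members were lower. The direction of the summed level and of ISG12(A) in the epithelial class thus differed with the day 9 cluster counted. Shares of all genes were not computed with either cluster left out, so these counts of members have no background. S100A2, a small calcium-binding protein and a leading gene of day 9 cluster 6 (1921 CPM) and of day 12 cluster 8 (1422 CPM), stood at 150 CPM in day 9 cluster 8.

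**Figure D3:**
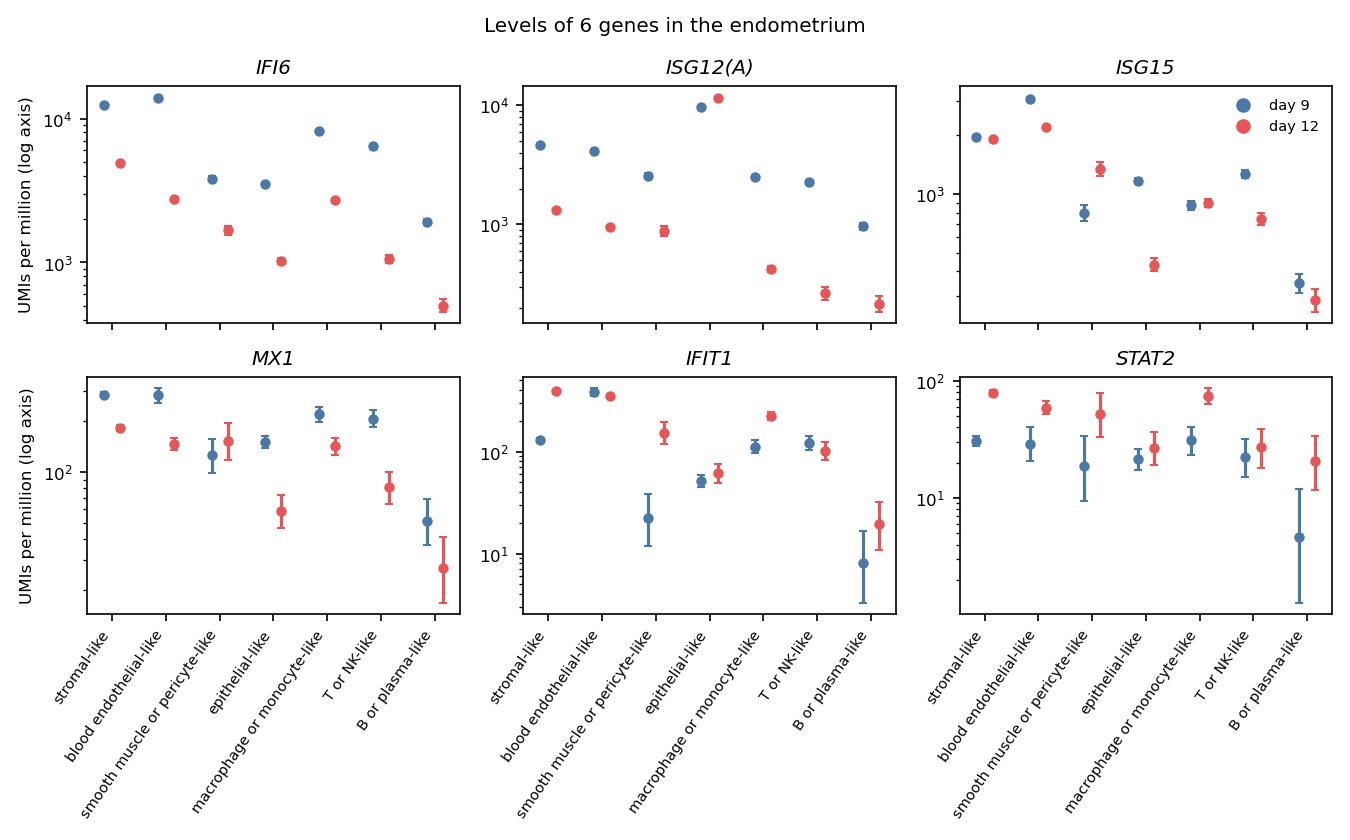
Level (CPM, log axis) of IFI6, ISG12(A), ISG15, MX1, IFIT1 and STAT2 in 7 endometrial cell classes on both days, with bars for the 95% counting interval. In stromal-like cells IFI6 and ISG12(A) are lower on day 12, ISG15 is level at 1961 and 1900 CPM, and IFIT1 and STAT2 are higher.

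Blood endothelial-like cells held the highest level of several effectors in the endometrium. On day 9 ISG15 stood at 3049 CPM there, BST2 at 903, IFIT1 at 387, RSAD2 at 189 and HERC6 at 156 CPM; MX2 stood at 251 CPM, near the 246 CPM of macrophage or monocyte-like cells. On day 12 ISG15 stood at 2195 CPM, 1.39-fold lower (1.34 to 1.44), and BST2 at 564 CPM, 1.60-fold lower (1.49 to 1.72). Of 33 members at 5 CPM, 2 were higher (IFIT2 at 15.7 and 70.1 CPM, ISG20 at 21.2 and 56.9 CPM) and 3 lower (ZBP1, IFI6 and ISG12(A)), against 4.37% higher and 7.86% lower of all genes. The class had 176 cells on day 9 and 805 on day 12.

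Macrophage or monocyte-like cells held the interferon regulatory factors IRF8 and IRF7 at high levels. IRF8 stood at 211 and 359 CPM, a ratio of 1.70 (1.50 to 1.93), and IRF7 at 166 and 254 CPM, a ratio of 1.53 (1.32 to 1.77). Of 33 members, 5 were higher (STAT2, IFIT1, IFIT2, ISG20 and PARP14) and 5 lower (ZBP1, OAS1, RSAD2, IFI6 and ISG12(A)), against 6.38% and 10.1% of all genes. ISG20 had the highest ratio of these, at 8.60 CPM on day 9 against 135 CPM on day 12, 15.7 (9.34 to 28.4). ISG15 was level at 872 and 898 CPM. DCN stood at 962 and 2074 CPM in this class, and its part in these ratios was not tested.

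T or NK-like cells had the lowest ratio of the summed level of the classes compared, 0.282 (0.272 to 0.293). Of 32 members at 5 CPM, 10 were lower and 2 higher, against 24.6% lower and 6.16% higher of all genes, so the share that was lower was near that of all genes. OAS2 stood at 77.5 and 18.3 CPM, 4.23-fold lower (2.58 to 7.30), MX2 at 76.8 and 19.3 CPM, 3.98-fold lower (2.46 to 6.78), and MX1 at 206 and 81.0 CPM, 2.54-fold lower (1.99 to 3.29). IRF8 (56.0 and 121 CPM) and ISG20 (35.2 and 86.7 CPM) were the 2 higher genes. The collagen gene COL1A1, which T and NK cells should lack, stood at 4468 CPM on day 9 against 654 CPM on day 12 in the same class, and its part in these ratios was not tested. With cells of 2000 UMIs or more, 3 members in place of 10 were lower, and the ratio of the summed level was 0.470 in place of 0.282.

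In smooth muscle or pericyte-like cells 12 of 31 members were higher and 3 lower, against 12.4% higher and 10.5% lower of all genes. For 10 of the 12 and 2 of the 3 the interval left out 1. IFIT1 stood at 22.3 and 153 CPM, a ratio of 6.84 (3.73 to 13.5), IRF7 at 22.3 and 110 CPM, a ratio of 4.92 (2.61 to 9.93), and ISG15 at 799 and 1338 CPM, a ratio of 1.67 (1.48 to 1.90). The class was small, with 255 and 177 cells. Markers of other cell types differed in it as well, DCN at 1048 and 3132 CPM and the leukocyte gene PTPRC at 13.7 and 54.9 CPM, and their part in these ratios was not tested. In B or plasma-like cells (84 and 77 cells) 5 of 24 members were higher and 6 lower, against 7.61% and 25.0% of all genes, and for 3 and 4 of them the interval left out 1.

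Shares of cells were compared after each endometrial cell was thinned to 1000 UMIs. ISG15 was detected in 73.7% of day 9 and 72.8% of day 12 stromal-like cells (91.7% and 87.1% without thinning), and IFIT1 in 11.8% and 28.8% (26.3% and 48.0%). MX1 was detected in 24.1% and 16.3% of stromal-like cells (50.6% and 31.6%). For comparison, DCN was found without thinning in 55.4% of day 9 and 66.1% of day 12 T or NK-like cells, at median depths of 1326 and 1239.5 UMIs against 2683 and 2172 UMIs in stromal-like cells. DCN is far more abundant than MX1 or IFIT1, so its share does not give their background, and how much RNA from other cells adds to any share given here was not tested. The share of cells with 5 or more of the 35 genes was 73.9% and 57.8% in endothelial-like cells, 44.0% and 41.9% in stromal-like cells, 31.6% and 8.76% in epithelial-like cells, and 6.67% and 16.9% in smooth muscle or pericyte-like cells. The epithelial share on day 9 joined cluster 6 at 48.6% and cluster 8 at 10.7%, and that on day 12 cluster 8 at 6.08% and cluster 13 at 22.4%.

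**Figure D4:**
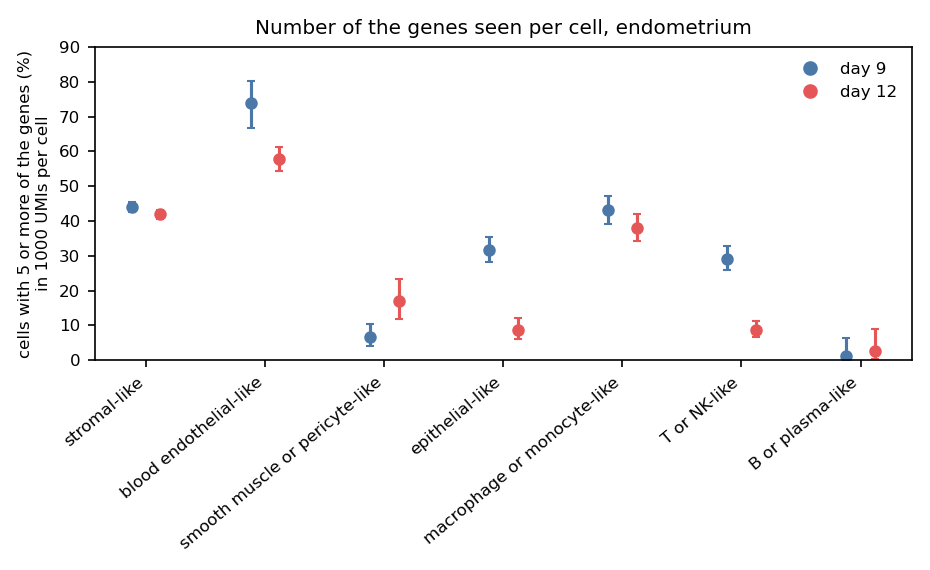
Percent of endometrial cells with UMIs of 5 or more of the 35 interferon stimulated genes after thinning to 1000 UMIs, by class and day, with 95% exact binomial intervals. Endothelial-like cells are highest on both days, at 73.9% and 57.8%, and epithelial-like cells go from 31.6% to 8.76%, where the day 9 value joins clusters at 48.6% and 10.7%.

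In the conceptus few members reached 5 CPM, 8 of 35 over the whole libraries, and the summed level was higher on day 12. In trophectoderm-like cells, the outer layer that will form the placenta, the summed level was 30.9 CPM (26.0 to 36.6) on day 9 and 208 CPM (203 to 214) on day 12, a ratio of 6.74 (5.69 to 8.04). In hypoblast-like cells, the future yolk sac lining, it was 64.9 and 159 CPM, a ratio of 2.45 (2.36 to 2.56). The day 12 epiblast-like cells (142 cells, the future fetus) stood at 221 CPM, and extraembryonic mesoderm-like cells (199 cells) at 103 CPM. Day 9 trophectoderm-like cells were 652, with the keratin KRT18 at 22334 CPM but PLET1, a trophectoderm gene of the elongating conceptus, at 1.35 CPM against 10883 CPM on day 12. DCN stood at 0.226 and 0.247 CPM in trophectoderm-like cells of the 2 days.

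In trophectoderm-like cells 9 members reached 5 CPM; 8 were higher on day 12 and 0 lower, against 29.3% higher and 10.0% lower of all genes, with medians of 1.82 and 0.31 on the log2 scale. Of these 9, ISG12(A) and EIF2AK2 alone reached 5 CPM on day 9. The rest entered the count through day 12 and could not be counted as lower, and all genes were counted by the same rule. The other 26 members were under 5 CPM on both days. ISG15 was at 0.451 CPM (2 UMIs) on day 9 and 82.6 CPM on day 12, a ratio of 183 (50.6 to 1512), and made up 39.6% of the sum on day 12. MX1 was at 0.226 CPM (1 UMI) and 9.59 CPM, a ratio of 42.5 (7.57 to 1685), and BST2, at chromosome 2, 60305306 to 60308295, was at 0.677 CPM (3 UMIs) and 9.98 CPM, a ratio of 14.7 (4.99 to 71.9). These 3 ratios rest on 1 to 3 molecules on day 9. IFI6 had no UMI on day 9 and stood at 7.44 CPM on day 12, at least 11-fold higher when 3 counts over the day 9 class are put in place of 0. ISG12(A) stood at 7.0 and 27.2 CPM, a ratio of 3.89 (2.72 to 5.77), IRF7 at 2.71 and 10.1 CPM, a ratio of 3.73 (2.10 to 7.29), EIF2AK2 at 6.55 and 19.2 CPM, a ratio of 2.93 (2.02 to 4.42), and ADAR at 4.29 and 10.9 CPM, a ratio of 2.54 (1.60 to 4.28). SAMHD1, at 2.93 and 5.11 CPM, did not pass 2-fold.

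In hypoblast-like cells 4 of 8 members were higher and 0 lower, against 12.1% higher and 8.80% lower of all genes. IRF7, at chromosome 2, 372235 to 375572, stood at 1.39 CPM on day 9 against 21.1 CPM on day 12, a ratio of 15.2 (12.3 to 18.9). BST2 stood at 1.13 and 13.6 CPM, a ratio of 12.0 (9.45 to 15.4), and ISG15 at 1.32 and 16.5 CPM, a ratio of 12.5 (10.0 to 15.7). ISG20 stood at 0.0539 and 8.18 CPM, a ratio of 152 (58.5 to 562). These 4 genes were under 5 CPM on day 9. They entered the count through day 12 alone and could not be counted as lower. EIF2AK2, the highest member in this class on both days, stood at 19.9 and 38.6 CPM, and ISG12(A) at 15.4 and 21.2 CPM. Over the whole embryo libraries 5 of 8 members were higher and 0 lower, against 13.0% and 7.63% of all genes. Of these 5, ISG12(A) alone reached 5 CPM on day 9. Without 20 epithelial-like cells of the day 12 library, 4 members were higher: ISG12(A), at 15.1 CPM on day 9 against 37.3 CPM on day 12, stood at 24.1 CPM on day 12 without them. The mix of classes differed, with 83.2% hypoblast-like cells on day 9 and 36.9% on day 12. Genes of the dissociation response, which enzymatic preparation induces, were higher on day 12 as well, 10 of 10 in trophectoderm-like and 8 of 10 in hypoblast-like cells; their part in the ratios of the interferon stimulated genes was not tested.

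The trophectoderm level on day 12 came to a large extent from few cells. A cell was called rich when it held 5 or more UMIs of the 35 genes and these made up 1000 CPM or more; the threshold was set after the data were seen, and 123 cells lay between 500 and 2000 CPM. By this measure 128 of 3246 day 12 trophectoderm-like cells were rich, 3.94% (3.30 to 4.67), and they held 46.0% of the members' UMIs of the class. On day 9, 0 of 652 were rich, which allows a share of up to 0.460% (3 cells; the exact upper limit is 0.564%), at a median of 5700 UMIs per cell against 8223.5 on day 12. On day 12, 3 of 2464 hypoblast-like, 1 of 142 epiblast-like and 1 of 199 extraembryonic mesoderm-like cells were rich. At 500 CPM or more 189 trophectoderm-like cells were counted, 5.82% (5.04 to 6.68), and at 2000 CPM or more 66. At 500 CPM or more, epiblast-like cells were near that share, with 5 cells, 3.52% (1.15 to 8.03). Hypoblast-like cells had 27, 1.10% (0.723 to 1.59), and extraembryonic mesoderm-like cells 2, 1.01% (0.122 to 3.58).

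Rich cells came from each of the 3 trophectoderm-like clusters, 66 of 1913 cells, 52 of 1053 and 10 of 280. Their median depth was 7691.5 UMIs, against 8242 UMIs in the other trophectoderm-like cells, and 1 of the 128 shared its barcode with an endometrial cell. A rich cell held UMIs of a median of 5 members, with a range of 1 to 15. Since members chose these cells, their own levels are a description: ISG15 stood at 1393 CPM in rich cells and 28.9 CPM in the others, MX1 at 157 and 3.56 CPM, BST2 at 146 and 4.41 CPM, and USP18 at 46.6 and 1.32 CPM. IFIT2, OASL and CMPK2 had no UMI in either set, and ISG20, ZBP1, IRF2 and UBA7 had none in the rich cells.

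Some genes outside the list were also higher in the rich cells. Of 15 other interferon induced genes at 5 CPM, 8 were 2-fold or more higher in rich cells, against 0.900% of all genes other than the members. ZC3HAV1, an antiviral zinc finger protein, stood at 20.6 CPM in rich cells and 1.25 CPM in the others, a ratio of 16.5, and PARP12 at 14.3 and 0.330 CPM, a ratio of 43.4. B2M, the light chain of MHC class I, stood at 115 and 24.0 CPM, a ratio of 4.78 (3.92 to 5.79). Of 16 trophectoderm markers at 5 CPM, 1 was 2-fold or more higher in rich cells, the interleukin gene IL1B2 at 27.8 and 11.1 CPM, a ratio of 2.50 (1.67 to 3.63). IL1B2 was found in only 5.47% of rich cells (31 UMIs) against 7.15% of the others, so its ratio rests on few cells. PLET1 stood at 10615 and 10894 CPM and HAND1 at 1883 and 1724 CPM. IFNG stood at 701 CPM in rich cells and 667 CPM in the others, a ratio of 1.05 (0.978 to 1.13), and IFN-DELTA-1 at 18.8 and 19.6 CPM. Median summed levels per cell of stromal, blood endothelial and T or NK markers were 0 in both sets. Those of lymphatic endothelial markers were 23.8 CPM in rich and 33.5 CPM in other cells, and of macrophage or monocyte markers 264 and 244 CPM. Of dissociation genes, 0 of 10 were 2-fold higher. When interferon genes were kept for clustering, a trophectoderm-like cluster of 96 cells formed at 2143 CPM, and it held 74 of the 128 rich cells.

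**Figure D5:**
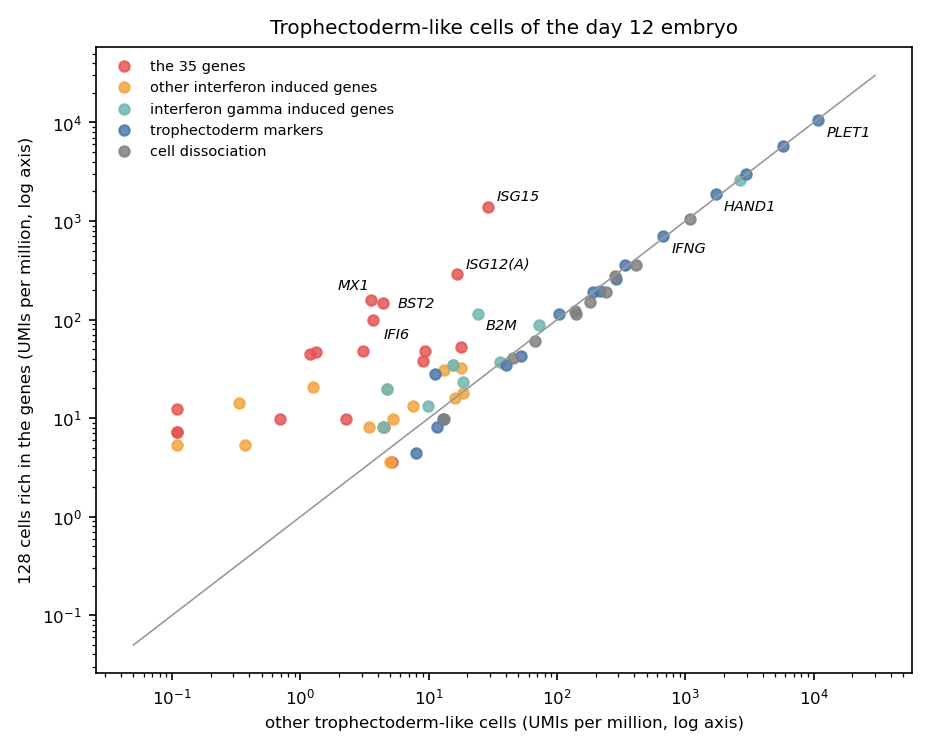
Level in the 128 rich trophectoderm-like cells of day 12 (vertical axis, CPM, log scale) against the other trophectoderm-like cells (horizontal axis, CPM, log scale), 1 point per gene, for genes of 5 sets at 5 CPM or more in either. The 35 interferon stimulated genes were used to choose the cells and lie above the diagonal for the most part, as do other interferon induced genes such as PARP12, while PLET1 and HAND1 lie near the diagonal.

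A cluster of 20 cells in the day 12 embryo library bore epithelial markers and a summed level of the group within the endometrial range. The summed level there was 18605 CPM (17603 to 19649), with ISG12(A) at 12341 CPM, ISG15 at 4604 CPM and IFI6 at 621 CPM. ISG12(A) held 855 and ISG15 319 of the 1289 UMIs of the group in these cells, and 10 members had none. These cells were 0.300% of the library but held 10.0% of the UMIs of the 35 genes. S100A2 stood at 17132 CPM in them, against 1422 CPM in day 12 endometrial epithelial-like cluster 8, and 11 of their 50 leading genes were also leading genes of that cluster. PLET1 stood at 953 CPM in the 20 cells, against 10883 CPM in trophectoderm-like cells. Without them the whole day 12 embryo library stood at 180 CPM, a ratio of 2.85 in place of 3.17. On day 9, hypoblast-like cluster 9 (73 cells) stood at 985 CPM, of which ISG12(A) made up 69.6%, and 2 rich cells held 10.3% of the hypoblast-like members' UMIs. A single cell held 395 of the 583 members' UMIs of cluster 9, so 985 CPM is not the level of its typical cell. Without that cluster the hypoblast-like ratio was 2.77 in place of 2.45.

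The day 9 embryo table also held 506703 barcodes with 1 to 50 UMIs, too few for a cell. The summed level of the 35 genes in them was 1622 CPM (1554 to 1691), against 63.0 CPM in the cells of that library. Of these barcodes, 8450 were also barcodes of the day 9 endometrium and of no other library, and stood at 15928 CPM (15011 to 16887), with IFI6 at 8934 CPM. Another 10413 were shared with the day 12 endometrium alone, and stood at 7581 CPM (6990 to 8207), with IFI6 at 3112 CPM. The 482150 that were shared with no library stood at 321 CPM (289 to 355). Embryo cells whose barcode was shared with an endometrial library were not higher in the group, at 61.7 CPM (177 cells) against 63.0 CPM on day 9 against 147 CPM (200 cells) against 201 CPM on day 12. Whether reads passed between libraries was not tested.

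Other genes of the interferon pathway were followed in the same classes. The receptor genes of type I interferon were nearly level in stromal-like cells, IFNAR1 at 82.4 and 92.1 CPM and IFNAR2 at 40.6 and 48.2 CPM, and were scarce in trophectoderm-like cells, IFNAR1 at 3.16 and 0.635 CPM and IFNAR2 at 0.677 and 0.529 CPM. Of 19 receptor and signalling genes at 5 CPM in stromal-like cells, 3 were higher and 0 lower, against 5.90% and 7.94% of all genes. Of the genes known for induction by interferon gamma, 16 of 19 were higher and 0 lower in stromal-like cells (median log2 ratio 2.14), against the same shares of all genes. Higher genes were 18 of 21 in macrophage or monocyte-like cells (6.38% of all genes), 13 of 22 in endothelial-like (4.37%), 15 of 21 in smooth muscle or pericyte-like (12.4%), 11 of 19 in epithelial-like (11.1%), 11 of 19 in T or NK-like (6.16%) and 12 of 19 in B or plasma-like cells (7.61%). Of these 6 classes, 2 genes were lower in smooth muscle or pericyte-like cells and 1 in T or NK-like cells. IDO1, which breaks down tryptophan, stood at 0.544 and 115 CPM in stromal-like cells, and the chemokine CXCL10 at 195 and 1616 CPM. In trophectoderm-like cells IFNG stood at 4.74 and 668 CPM, and IFN-DELTA-1 had no UMI on day 9 and stood at 19.5 CPM on day 12.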

How the data were processed

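RNA of single cells was measured in 4 pig libraries, 1 per group. The authors deposited UMI counts for each gene and barcode. The submitters' processing notes name Cell Ranger 6.1.2 and the Sscrofa11.1 build; for the day 9 embryo, Cell Ranger 4 is named instead, per the file headers. Embryos were dissociated with papain and dispase, endometrium with collagenase and dispase, per the labels' protocols. The way cells were chosen was not given in the sources used here.

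From the deposited counts, cells of the day 9 embryo, deposited as 657829 barcodes, were called here above 2759.47 UMIs, which is 0.1 times the percentile 99 of the 3000 highest totals. Kept cells had 1000 or more UMIs, 500 or more genes and no more than 20% of UMIs from mitochondrial genes. Doublets marked by Scrublet (scanpy 1.11.5) were removed, 1, 93, 0 and 0 per library; in 3 libraries the caller did not work. Clustering ran within each library (Leiden at resolution 0.6, on 15 neighbours in 30 components of 2000 variable genes, without members and other interferon induced genes) and clusters were named from 204 of 226 listed markers, by a rule set after the clusters were seen. Levels are CPM of summed counts. Intervals at 95% are exact Poisson for levels and exact binomial for shares and ratios, and cover counting error only; levels of 0 were replaced by 3 counts for a bound. No test was run with 1 library per group. The computation was checked on simulated data.

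The members, the gene lists, the classes and the rule for named genes (members at 50 CPM in any class, or 4-fold between days at 20 CPM) were chosen with earlier results of these data known. Gene positions are RefSeq's on Sscrofa11.1, matched by symbol for 34 of the 35 members. Kept cells held 82526421, 64299480, 26070993 and 25457541 UMIs (embryo on days 9 and 12, then endometrium on days 9 and 12). Alternatives tried were other cell filters, clustering, scaling, added CPM, and leaving out clusters. A promoter motif search was planned but no promoter sequences were used here. A gene of the interferon signalling list is not reported here.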

Additional observations from a re-analysis of the deposited data

Results flagged for a closer look

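For some members the ratio of day 12 over day 9 lay on opposite sides of 1 in the whole embryo and the whole endometrium, and the difference between the tissues was not tested. The summed level of the 35 genes had a ratio of day 12 over day 9 of 3.17 in the embryo and 0.502 in the endometrium. ISG15 had 40.8 and 0.985, IFI6 3.48 and 0.372, and ISG12(A) 2.47 and 0.333. IFI6 and ISG12(A) passed 2-fold in both tissues, and ISG15 was nearly level in the endometrium. The summed endometrial ratio was not that of most members. Of 34 members at 5 CPM there, 21 had a log2 ratio above 0 and 13 below, with a median of 0.15. The role group that holds IFI6 and ISG12(A) summed to 15014 CPM on day 9 against 5548 CPM on day 12. In the embryo ISG12(A) stood at 15.1 CPM on day 9 against 37.3 CPM on day 12, or 24.1 CPM on day 12 without 20 epithelial-like cells that held 35.6% of its UMIs, and was then no longer 2-fold higher. The kinase EIF2AK2 had 1.44 and 0.698, and the RNA editing enzyme ADAR 2.05 and 0.776. SAMHD1 was the gene that went the other way, with 0.759 in the embryo and 2.25 in the endometrium. These are ratios of whole libraries, whose mix of cell classes differed between days.

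Signal of the group was also present outside the cells, in barcodes of 50 UMIs or fewer of the day 9 embryo table. Those shared with the day 9 endometrium and no other library stood at 15928 CPM, and those shared with the day 12 endometrium alone at 7581 CPM, against 321 CPM in barcodes of that size shared with no library.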

How the results depend on the processing

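Of 277 values under alternative settings, 228 kept their direction and size, 48 moved and 1 reversed; the cause was not tested, other than by the construction of settings that leave out genes or cells. The reversal was the epithelial-like ratio, 1.55 without day 9 cluster 6 in place of 0.894 (0.576 without cluster 8), where 7 members were higher in place of 0 and 3 lower in place of 10 (21 lower without cluster 8). Shares of all genes were not computed under the alternative settings, so counts of members there have no background. Settings on clusters, and keeping interferon genes for clustering, were chosen after seeing the data.

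Scaling by the median of gene ratios gave summed ratios of 2.74 in hypoblast-like, 8.22 in trophectoderm-like, 3.56 in whole embryo, 0.473 in B or plasma-like, 0.263 in T or NK-like, 0.366 in endothelial-like, 0.931 in epithelial-like, 0.466 in macrophage-like and 0.521 in stromal-like cells and 0.517 in whole endometrium, and 8 members higher in place of 5 in whole embryo. Without the highest member the ratios were, in the same order of classes, 2.68, 4.13, 3.39, 0.526, 0.428, 0.563, 0.392, 0.688, 0.643 and 0.651, and 0.881 in smooth muscle-like cells. Leiden resolution 1.2 gave 0.342 in B or plasma-like, 0.518 in T or NK-like, 0.832 in epithelial-like and 0.541 in macrophage-like cells, with 1 member higher in T or NK-like cells in place of 2. Cells of 2000 UMIs or more gave 0.470 in T or NK-like, 0.911 in epithelial-like and 0.502 in stromal-like cells and 0.497 in whole endometrium, with 3 members lower in T or NK-like cells in place of 10. Without the 5 CPM minimum, 7 members were higher in hypoblast-like, 14 in trophectoderm-like and 11 in whole embryo, and 5 lower in endothelial-like cells. With 5 CPM added, 2 members were lower in macrophage-like cells in place of 5. In B or plasma-like cells 2 members in place of 5 were higher with 5 CPM added, with cells of 2000 UMIs or more, with a mitochondrial limit of 10% and with interferon genes kept for clustering. Without day 9 cluster 9 the ratio was 2.77 in hypoblast-like cells and 3.54 in whole embryo, and without the 20 epithelial-like cells 2.85 in whole embryo.

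No paired analysis was possible because each group has 1 library, and leaving out a replicate was not possible for the same reason. Low levels of the members limit the embryo, although its cells held more UMIs at the median than those of the endometrium. In trophectoderm-like cells 26 of 35 members were under 5 CPM, and day 9 values of ISG15, MX1 and BST2 there rest on 1 to 3 UMIs.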

Other observations

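The genes whose mean level followed the 35 members most closely over 21 cell classes of the 4 libraries, among 10357 genes, were ERAP1 and TRIM22, both with a Pearson r of 0.98 on the log2 scale, then PARP12, KMT2E, FBXO39, PML, LGALS3BP and ENSSSCG00000001341 at 0.97, and IFITM3 and ENSSSCG00000014565 at 0.96. These classes share libraries and differ most between embryo and endometrium. Over the 15 endometrial classes alone the same genes had r of 0.78 to 0.92. Of the members, 13 lay within 100000 bases of another on Sscrofa11.1, in 8 pairs. In stromal-like cells the log2 ratios of the pair IFIT2 and IFIT1 were 2.46 and 1.56, and those of MX2 and MX1 were -0.36 and -0.66. In epithelial-like cells RSAD2 and CMPK2 had -3.49 and -1.80. DTX3L and PARP9 overlap by 395 bases, and whether this affected the counts of either gene was not tested.

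A pair of small unnamed endometrial clusters held the highest level of IRF8. Day 9 cluster 14 (16 cells) held IRF8 at 1636 CPM and IRF7 at 278 CPM, and day 12 cluster 14 (48 cells) held IRF8 at 1993 CPM and IRF7 at 498 CPM, against 359 and 254 CPM in day 12 macrophage or monocyte-like cells. Both clusters were led by genes that include VPREB1, BLNK and CTSS.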
